A study of Mus musculus with 12 samples.

Results

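The 9 genes described here encode the machinery with which a cell shows peptides to CD4+ T cells on MHC class II molecules. They were chosen by name, H2-Aa, H2-Ab1, H2-Eb1, H2-DMa, H2-DMb1, Cd74, Ciita, Cd80 and Cd86, from the 47643 genes of a bulk RNA-seq. count table, and all 9 were found and passed the filter on low counts. The table holds 12 libraries of day 3 osteoclasts, which BALB/c WT monocytes from bone marrow (BMMs) had formed in medium with M-CSF and RANKL. Unstimulated cultures (OCsCtr, n = 4) were compared with cultures that received sorted eosinophils at 2 eosinophils per BMM (OCsEo, n = 4) or eosinophil supernatant at a 1:2 dilution (OCsEoS, n = 4). The stimuli were added on day 0 for 48 h, after which the cells were washed and given fresh medium. The eosinophils came from IL-5tg/4get mice, so that both stimuli derive from a hyper-eosinophilic donor strain and not from wild-type mice. The methods call the 4 replicates of a group biological, the labels number them without naming the mice, and the p-values measure the spread between these cultures.

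A class II molecule is a pair of an alpha and a beta chain, assembled in the endoplasmic reticulum around the invariant chain, which is encoded by Cd74. In the endosome, proteases shorten the invariant chain to a fragment in the peptide groove, and the chaperone H2-DM exchanges this fragment for peptides of ingested proteins. CIITA, the class II transactivator encoded by Ciita, binds no DNA itself and acts through the RFX, CREB and NF-Y factors that sit on the X and Y boxes of class II promoters. CD80 and CD86 are the ligands of CD28 and CTLA-4 and give the T cell its costimulatory signal. Macrophages and dendritic cells use this machinery, and BMMs, the precursors of osteoclasts, belong to the same lineage.

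The X and Y boxes are shown because they are what the promoters of several of these genes have in common, and the stretches of 150 bases before the RefSeq start site are printed for 4 of the 5 genes that matched an entry of the promoter table. Sequences are from RefSeq on GRCm38.p6, 5' to 3' in the direction of transcription, with the boxes in capitals. They lie at chr17:34287824-34287973 (minus strand), chr17:34305717-34305866 (plus strand), chr17:34153041-34153190 (plus strand) and chr16:38458783-38458932 (plus strand).
H2-Aa: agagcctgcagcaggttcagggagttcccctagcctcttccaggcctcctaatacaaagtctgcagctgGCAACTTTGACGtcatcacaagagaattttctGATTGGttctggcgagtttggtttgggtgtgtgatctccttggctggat
H2-Eb1: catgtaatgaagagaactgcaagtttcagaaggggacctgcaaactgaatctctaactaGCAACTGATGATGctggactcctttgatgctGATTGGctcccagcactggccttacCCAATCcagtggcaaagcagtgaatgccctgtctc
H2-DMb1: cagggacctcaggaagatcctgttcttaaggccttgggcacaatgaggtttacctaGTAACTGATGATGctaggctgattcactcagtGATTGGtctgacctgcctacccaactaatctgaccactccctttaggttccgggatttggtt
Cd80: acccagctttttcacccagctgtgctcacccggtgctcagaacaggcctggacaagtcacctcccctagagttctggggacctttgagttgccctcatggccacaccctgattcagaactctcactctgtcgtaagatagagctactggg

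The X box was searched as GNAAC followed, after 3 or 2 further bases, by TGANG, and the Y box as GATTGG, on both strands, over 300 bases from 250 before to 50 after each start. These letters were written with the class II sequences in view, and a match is a description of the sequence and not a bound site. An X box followed by a Y box after a gap of 10 to 30 bases was present in 16 of 32851 promoters (0.0487%), whereas the X box alone was found in 1.81% and the Y box alone in 16.1%. H2-Aa, H2-Eb1 and H2-DMb1 held the pair, with the X box beginning 81, 91 and 94 bases before the start and the Y box 49, 60 and 62 bases before it. H2-Eb1 held a further Y box on the other strand. The letters were not found in the Cd80 window. H2-Ab1, Cd74, Ciita and Cd86 had no entry. The entries of H2-DMa, 9664 and 12350 bases from its gene start in the count data, are not shown. They held 0 X boxes and 0 pairs, and the nearer had a Y box. Among further class II genes, H2-Ob held the pair, and H2-Eb2, H2-DMb2 and H2-Oa had a Y box without an X box.

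Measured per length, the 9 genes spanned a wide range of levels. Values per length are CPM (counts relative to the library total, scaled by the trimmed mean of M-values) divided by the gene length in kilobases, given as the mean ± SD of 4 libraries. In OCsCtr, Cd74 was highest at 135.5 ± 21.5, followed by H2-Eb1 at 51.1 ± 11.4 and H2-Aa at 41.8 ± 7.29, whose ranges over libraries overlapped. H2-DMa at 28.4 ± 2.88 and H2-Ab1 at 24.7 ± 3.76 formed the next level, also with overlapping ranges. Cd80 at 2.46 ± 0.405 and H2-DMb1 at 2.19 ± 0.320 overlapped each other and were separate from the genes above and below, and Cd86 at 1.00 ± 0.210 and Ciita at 0.207 ± 0.0691 were lowest. Untreated day 3 cultures therefore held transcripts of the peptide-presenting chains well above those of the transactivator and the costimulatory ligands. The order in OCsEo was the same, and in OCsEoS H2-Ab1 (35.2 ± 2.70) stood before H2-DMa (32.6 ± 1.17) and H2-DMb1 (3.61 ± 1.28) before Cd80 (2.66 ± 0.434), both with overlapping ranges.

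**Figure D1:**
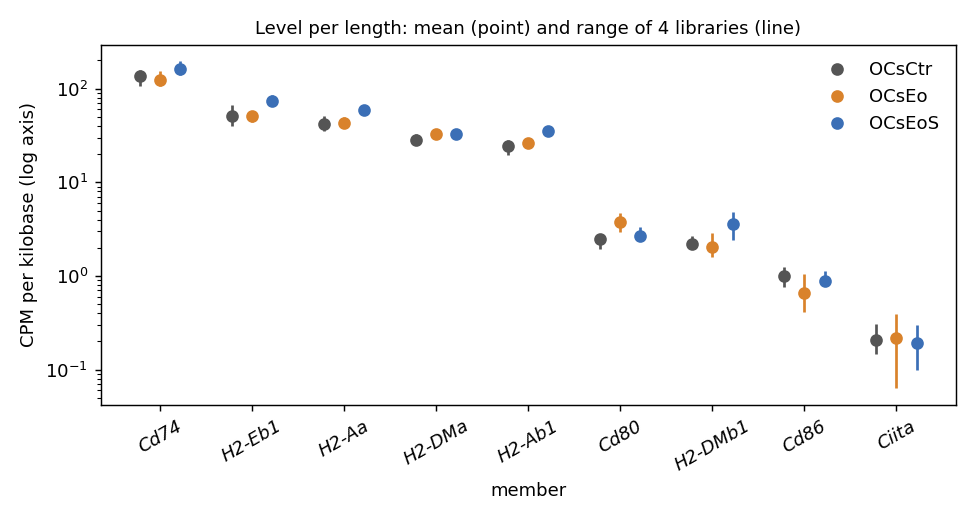
Level of each gene per length (CPM per kilobase, log axis) in OCsCtr, OCsEo and OCsEoS, with points for the mean of 4 libraries and lines for their range. Cd74 lies above all others in every group and Ciita below all others, and the points of H2-Aa, H2-Ab1 and H2-Eb1 are higher in OCsEoS than in the other groups.

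All other levels are CPM and compare libraries for 1 gene. Total counts per library ranged from 27837530 to 40327869, and 3 counts corresponded to 0.0744 to 0.108 CPM. Called genes had an adjusted p under 0.05 in edgeR's quasi-likelihood F-test, with Benjamini-Hochberg adjustment over 13681 genes, together with a log2 fold change past 0.5 in either direction. The cultures carried the osteoclast label in their RNA, with Ctsk, the bone-matrix protease cathepsin K, at 6155 CPM or more in every library. Of 10 osteoclast markers, 8 were lower by this rule in the eosinophil group and 8 in the supernatant group, and their summed level was 28358 to 34496 CPM in OCsCtr, 18093 to 23205 in OCsEo and 14942 to 22171 in OCsEoS. In bulk RNA, a change in the number of cells of 1 type and a change in RNA per cell cannot be told apart, and this holds for each comparison that follows.

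The supernatant comparison moved the classical class II chains. In OCsEoS against OCsCtr, H2-Aa, H2-Ab1 and H2-Eb1 rose by 1.42-, 1.42- and 1.45-fold, and none of the other 6 genes was called. This is 3 of 9 genes called higher, where 3.63% of all tested genes were called higher, and 0 of 9 called lower, where 4.11% were. At an unadjusted p under 0.05, edgeR had 6 genes higher and 0 lower, and DESeq2 called 4 higher and 0 lower. All shares given here are those of edgeR, and the share of all genes that DESeq2 called was not computed in any comparison. The share of all tested genes at an unadjusted p was not computed, here or for the lists below. It is at least the share at the adjusted p alone, 23.0% in OCsEoS, 17.4% in OCsEo and 0.592% between the stimuli. At the adjusted p alone the same 3 genes passed, against 23.0% of all tested genes in either direction. The median log2 fold change of the 9 genes was 0.27, and that of all tested genes was -0.01. In OCsEo against OCsCtr, 1 of 9 genes was called higher, Cd80 (1.54-fold), where 3.27% of all tested genes were, and 0 of 9 lower, where 2.61% were. At an unadjusted p under 0.05, 2 were higher and 1 lower, and DESeq2 called 1 higher and 0 lower. Cd80 was also the only gene past the adjusted p alone, which 17.4% of all tested genes passed, and the median of the 9 genes was 0.05 against -0.01 for all. Both comparisons share the OCsCtr libraries. Between the stimuli, H2-Eb1 was called higher in OCsEoS than in OCsEo, where 0.0731% of all tested genes were called higher and 0.307% lower, and 0.592% passed the adjusted p alone. The other 8 genes were not called, 5 of 9 were higher and 1 lower at an unadjusted p under 0.05, and DESeq2 also called 1 higher and 0 lower.

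H2-Aa, which encodes the alpha chain of the I-A molecule, lies at chr17:34282744-34287827 on the minus strand (GRCm38). Its OCsCtr libraries 1 to 4 had 69.9, 96.7, 66.2 and 80.6 CPM. The OCsEo libraries had 74.0, 93.3, 84.3 and 72.6 CPM, and the OCsEoS libraries 108, 119, 99.8 and 120 CPM. Every OCsEoS library was above all others, the closest being OCsCtr 2, while OCsCtr and OCsEo overlapped. The log2 fold change of OCsEoS against OCsCtr was 0.51 ± 0.11 (SE, 95% interval 0.29 to 0.73, adjusted p = 0.00152, edgeR), close to the cut-off of 0.5. It was between 0.44 and 0.48 when OCsCtr 1, OCsCtr 3, OCsEoS 2 or OCsEoS 4 was left out, with the adjusted p at most 0.0086. OCsEo against OCsCtr gave 0.05 (interval -0.17 to 0.27, adjusted p = 0.812), and OCsEoS against OCsEo 0.46 (interval 0.24 to 0.68, adjusted p = 0.0508).

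H2-Ab1, the beta chain that pairs with H2-Aa, lies at chr17:34263209-34269418 on the plus strand. It had 41.5, 46.6, 31.9 and 41.7 CPM in OCsCtr and 39.1, 48.9, 38.1 and 45.7 CPM in OCsEo. In OCsEoS it had 57.8, 62.7, 57.8 and 51.9 CPM. The OCsEoS libraries were again above all 8 others, and OCsCtr 3 was the lowest library of the series. OCsEoS exceeded OCsCtr by 0.51 ± 0.11 on the log2 scale (SE, interval 0.29 to 0.73, adjusted p = 0.00172, edgeR), and the value was 0.42 without OCsCtr 3 and 0.47 without OCsEoS 2, with adjusted p-values at most 0.00628. OCsEo against OCsCtr gave 0.09 (interval -0.14 to 0.31, adjusted p = 0.653) and OCsEoS against OCsEo 0.42 (interval 0.20 to 0.64, adjusted p = 0.0843). The per-length ratio of H2-Aa to H2-Ab1 was 0.76 ± 0.14, 0.72 ± 0.19 and 0.76 ± 0.18 on the log2 scale in OCsCtr, OCsEo and OCsEoS (SD, n = 4). The ratio of the partner chains was thus within 0.04 between groups, which was smaller than its spread over libraries (exact permutation tests, two-sided, p from 0.743 to 1).

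H2-Eb1, the beta chain of the I-E molecule, lies at chr17:34305877-34316199 on the plus strand. It had 61.3, 79.1, 47.7 and 54.1 CPM in OCsCtr and 51.5, 66.6, 58.2 and 63.8 CPM in OCsEo. In OCsEoS it had 80.6, 102, 83.8 and 84.7 CPM. OCsEoS stood above both other groups, narrowly so against OCsCtr 2, and OCsEoS 2 was the highest library. OCsEoS exceeded OCsCtr by 0.54 ± 0.12 (SE, interval 0.28 to 0.79, adjusted p = 0.0031, edgeR), and the value was 0.44 to 0.49 without OCsCtr 3, OCsCtr 4 or OCsEoS 2. It exceeded OCsEo by 0.55 ± 0.12 (SE, interval 0.29 to 0.80, adjusted p = 0.043, edgeR), a call that was lost when any 1 of the 8 libraries of these 2 groups was left out (0.47 to 0.60, adjusted p = 0.0607 to 0.135). OCsEo against OCsCtr gave -0.01 (interval -0.27 to 0.24, adjusted p = 0.964), and 0.15 without OCsCtr 2.

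**Figure D2:**
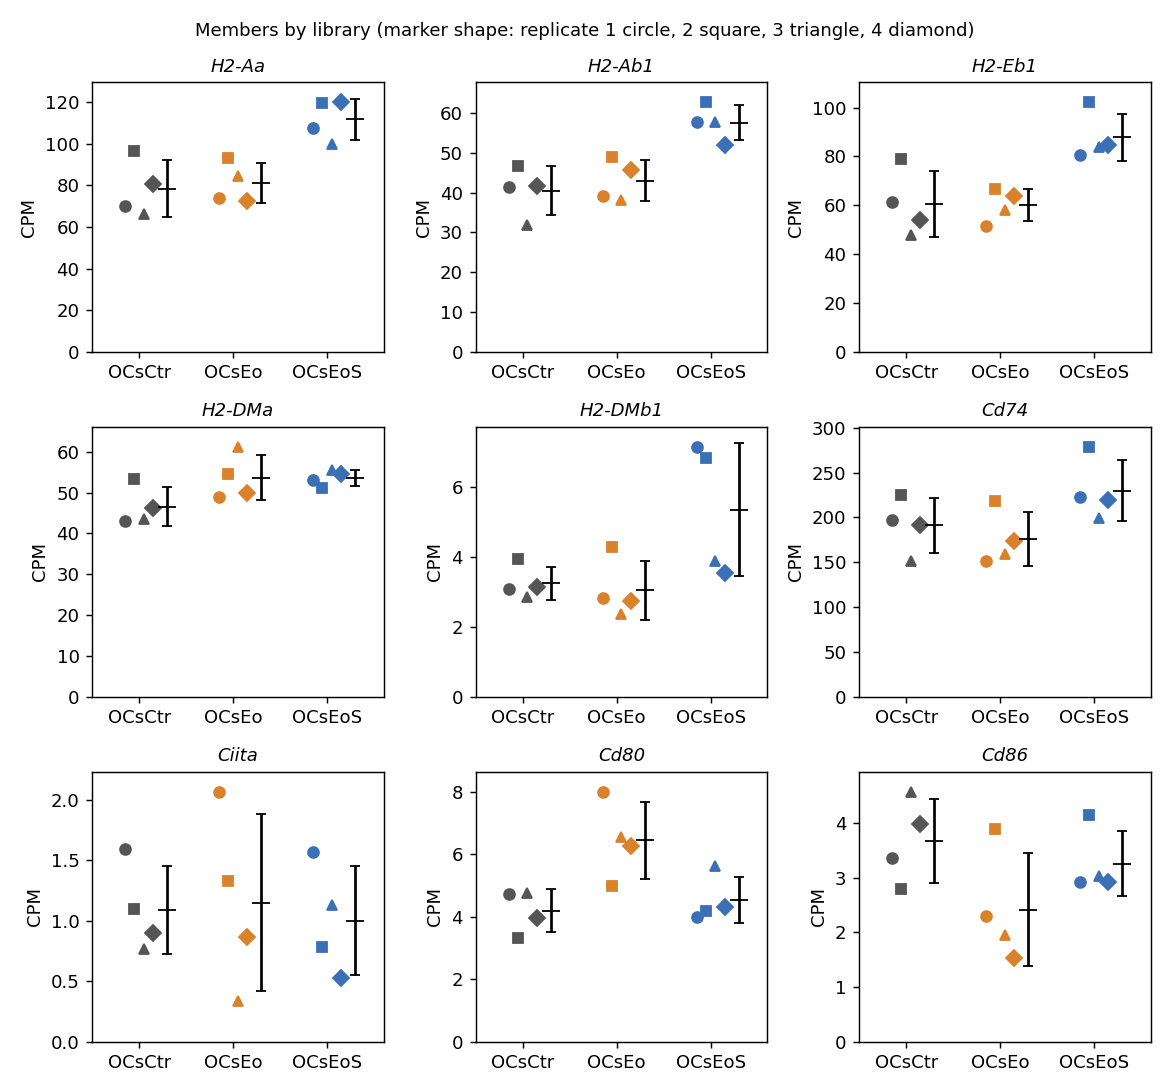
CPM of the 9 genes in each library, by group, with marker shapes for replicates 1 to 4 and black bars for the mean and SD of 4 libraries. For H2-Aa, H2-Ab1 and H2-Eb1 all 4 OCsEoS libraries lie above the other 8, and for Cd80 all 4 OCsEo libraries lie above the 4 OCsCtr libraries.

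The invariant chain did not pass the test. Cd74 (chr18:60803848-60812646, plus strand) had 198, 225, 151 and 191 CPM in OCsCtr. It had 151, 218, 160 and 174 CPM in OCsEo, and 223, 278, 199 and 219 CPM in OCsEoS. OCsEoS 2 was the highest library, and the groups overlapped. The log2 fold change was 0.27 ± 0.12 in OCsEoS (SE, interval 0.02 to 0.51, adjusted p = 0.120) and -0.12 ± 0.12 in OCsEo (interval -0.37 to 0.13, adjusted p = 0.559). OCsEoS against OCsEo gave 0.39 (interval 0.14 to 0.64, adjusted p = 0.191). Against its cargo, the per-length log2 ratio of Cd74 to H2-Ab1 was 2.45 ± 0.03 in OCsCtr, 2.24 ± 0.11 in OCsEo and 2.20 ± 0.16 in OCsEoS (SD, n = 4). The 4 ratios of each stimulated group lay below the 4 of OCsCtr, by 0.21 and 0.25 on average. Each difference had an exact permutation p of 0.0286 (two-sided, 70 splits), the smallest that 4 against 4 libraries allow. After Benjamini-Hochberg adjustment over 12 ratio tests it was 0.171, so neither passed the correction. With that smallest p, an adjusted p under 0.05 is out of reach unless most of the 12 tests attain it.

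H2-DMa and H2-DMb1 encode the chains of the H2-DM peptide editor. H2-DMa (chr17:34135182-34139101, plus strand) had 43.2 to 53.4 CPM in OCsCtr, 49.0 to 61.1 in OCsEo and 51.2 to 55.6 in OCsEoS, with only OCsCtr 2 of its group inside the range of the stimulated libraries. Its log2 fold changes were 0.20 ± 0.09 in OCsEo (SE, interval 0.03 to 0.38, adjusted p = 0.111) and 0.20 ± 0.09 in OCsEoS (interval 0.02 to 0.38, adjusted p = 0.0999). Between the stimuli it was -0.00 (interval -0.18 to 0.18, adjusted p = 0.994).

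H2-DMb1 (chr17:34153072-34160230, plus strand) was low, with 79 to 237 counts per library. It had 3.09, 3.95, 2.86 and 3.14 CPM in OCsCtr, and 2.84, 4.28, 2.36 and 2.74 CPM in OCsEo. In OCsEoS it had 7.15, 6.86, 3.89 and 3.56 CPM, so that libraries 1 and 2 were high and libraries 3 and 4 lay within the range of the other groups. The log2 fold change in OCsEoS was 0.72 ± 0.26 (SE, interval 0.17 to 1.27, adjusted p = 0.055) and it was not called. It was called in 6 alternatives. Among these were DESeq2 (adjusted p = 0.0419), edgeR on 2 groups (0.0463), a replicate block (0.0357) and fits without OCsEoS 3 (0.0354) or OCsEoS 4 (0.0239). H2-DMb2, a near copy in the same cluster, had 0.52 in OCsEoS (adjusted p = 0.0567), and reads could be split between the copies. The summed level of both copies was 7.27 to 12.3 CPM in OCsCtr, 9.82 to 11.0 in OCsEo and 10.6 to 17.5 in OCsEoS, with overlapping groups.

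Ciita (chr16:10488178-10527564, plus strand), the class II transactivator, was the least abundant of the 9 genes, with 13 to 69 counts per library. It had 1.59, 1.10, 0.766 and 0.902 CPM in OCsCtr and 2.06, 1.33, 0.333 and 0.866 CPM in OCsEo. In OCsEoS it had 1.57, 0.781, 1.13 and 0.525 CPM. The groups overlapped fully, and the log2 fold changes were 0.08 in OCsEo (interval -1.03 to 1.18, adjusted p = 0.950) and -0.13 in OCsEoS (interval -1.24 to 0.99, adjusted p = 0.904). With 1 library left out these ran from -0.37 to 0.38 and from -0.41 to 0.10, so that neither kept its direction. A change of the size seen for H2-Aa, H2-Ab1 and H2-Eb1 was neither detected nor excluded for Ciita, since both intervals include it. How far low counts or the spread between libraries widened the intervals was not tested. The span of Ciita, introns included, overlaps that of Dexi on the opposite strand over 25034 bases, and Dexi had 431 to 773 counts. Whether reads were counted by strand is not given in the sources used here, and the overlap of exons was not measured. Without strand, reads from any exon shared by the 2 genes could not be told apart.

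Of the costimulatory ligands Cd80 and Cd86, which share their receptors, Cd80 was called in OCsEo and Cd86 in no comparison. Cd80 (chr16:38458933-38486933, plus strand) had 4.71, 3.32, 4.77 and 3.95 CPM in OCsCtr. It had 7.98, 4.97, 6.54 and 6.27 CPM in OCsEo, and 3.99, 4.17, 5.61 and 4.32 CPM in OCsEoS. All 4 OCsEo libraries were above all 4 OCsCtr libraries, with OCsEo 2 close to the highest control, and OCsEoS overlapped both groups. The log2 fold change in OCsEo was 0.62 ± 0.20 (SE, interval 0.20 to 1.04, adjusted p = 0.0361, edgeR). The call was lost without a filter on low counts (adjusted p = 0.0566) and when OCsCtr 2, OCsCtr 4, OCsEo 1, OCsEo 3 or OCsEo 4 was left out (0.50 to 0.63 on the log2 scale). In OCsEoS the value was 0.11 (interval -0.31 to 0.53, adjusted p = 0.755). The difference between the stimuli was -0.51 for OCsEoS against OCsEo (interval -0.92 to -0.09, adjusted p = 0.326), so the 2 stimuli were not shown to differ in Cd80.

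Cd86 (chr16:36603869-36666081, minus strand) had 3.36, 2.79, 4.56 and 3.98 CPM in OCsCtr. It had 2.30, 3.88, 1.95 and 1.52 CPM in OCsEo, and 2.92, 4.14, 3.03 and 2.92 CPM in OCsEoS. OCsEo 1, 3 and 4 were below every OCsCtr library and OCsEo 2 was among them. The log2 fold change in OCsEo was -0.60 ± 0.28 (SE, interval -1.19 to -0.01, adjusted p = 0.159), and without OCsEo 2 it was -0.93 (adjusted p = 0.0254), which is a call. In OCsEoS it was -0.18 (interval -0.76 to 0.41, adjusted p = 0.719), and between the stimuli 0.42 (interval -0.17 to 1.02, adjusted p = 0.617). The per-length log2 ratio of Cd86 to Cd80 was -1.30 ± 0.22 in OCsCtr, -2.59 ± 0.76 in OCsEo and -1.58 ± 0.36 in OCsEoS (SD, n = 4). OCsEo against OCsCtr had an exact permutation p of 0.0571 (two-sided, 0.229 adjusted over 12 ratio tests).

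**Figure D3:**
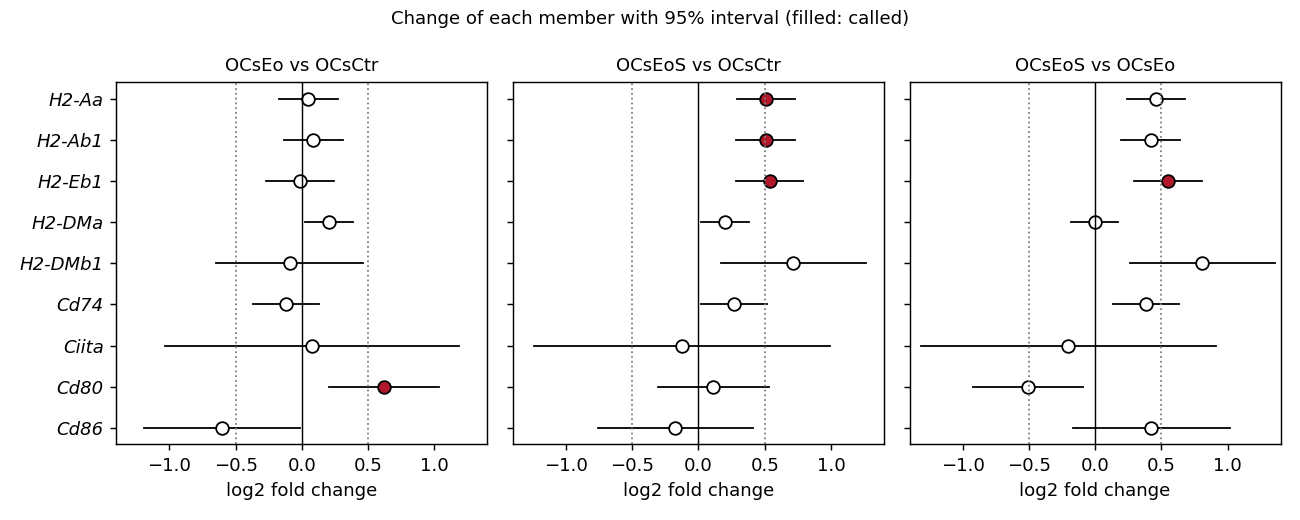
Log2 fold change of the 9 genes in the 3 comparisons (points) with 95% intervals (lines), filled where called, and dotted lines at the cut-off of 0.5 in each direction. The called genes are Cd80 in OCsEo against OCsCtr, the 3 classical chains in OCsEoS against OCsCtr, and H2-Eb1 in OCsEoS against OCsEo, and the intervals of Ciita are the widest.

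The class II genes varied together from library to library. Within each group replicate 2 tended to be high, being the highest OCsCtr library for 6 of the 6 class II genes (H2-Aa, H2-Ab1, H2-Eb1, H2-DMa, H2-DMb1 and Cd74), the highest OCsEo library for 5 and the highest OCsEoS library for 3. OCsCtr 3 was the lowest OCsCtr library for 5 of 6. With group means taken out, Pearson r of log2 CPM over 12 libraries was 0.43 to 0.87 (median 0.71) for the 10 pairs among these genes without H2-DMa. It was -0.04 to 0.68 for the 5 pairs with H2-DMa. Cd80 ran the other way, with r of -0.43 to -0.83 to the 6 class II genes, while Ciita had r between -0.47 and 0.47 to them. These values are a description over 12 libraries that share depth and scaling.

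**Figure D4:**
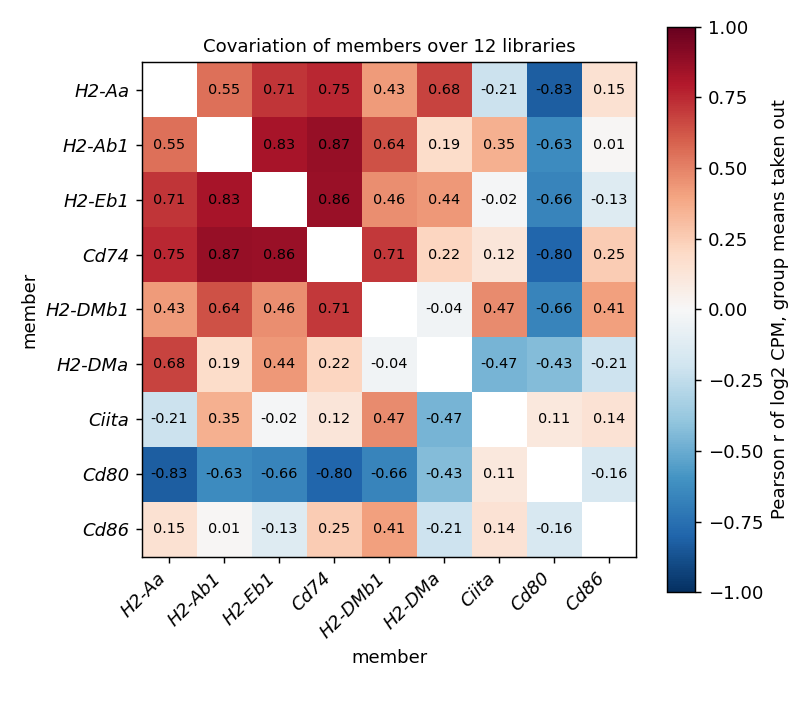
Pearson r of log2 CPM between each pair of genes over 12 libraries, after group means were taken out (colour and printed value). The block of H2-Aa, H2-Ab1, H2-Eb1, Cd74 and H2-DMb1 is positive throughout, and the row of Cd80 is negative for all 6 class II genes.

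The gene whose levels were most like the mean of the 6 class II genes was H2-Ea-ps, the I-E alpha chain gene, listed as a pseudogene in the reference annotation (r = 0.95 over 12 libraries). It had 63.9, 79.9, 46.6 and 61.2 CPM in OCsCtr, 56.7 to 69.3 in OCsEo and 79.8, 108, 84.5 and 94.1 CPM in OCsEoS. OCsEoS 1 lay just under OCsCtr 2, so that the groups overlapped. H2-Ea-ps rose in OCsEoS by 0.54 (adjusted p = 0.00311, edgeR) and was 0.58 higher than in OCsEo (adjusted p = 0.034). The first call was lost without OCsCtr 3 (0.43) or OCsEoS 2 (0.46), and the other without any 1 of 6 of the 8 libraries (adjusted p up to 0.112). The next most alike were Dclk1 (0.91), Pkd1l2 (0.83), Dpep2 (0.82), Tnfrsf14 (0.81), Ankrd29 (0.81), Duoxa1 (0.81), Rpl17 (0.80), Mgl2 (0.79) and AK010878 (0.78). With group means taken out they were Gga1 (0.87), Lpcat4 (0.87), Cd59a (0.87), Oaz1-ps (0.86) and Ubl5 (0.86). Dclk1, Ankrd29, Duoxa1 and Mgl2 were low, with mean levels of 0.374 to 0.685 CPM. Both sets are the top of a ranking of all tested genes, and their r is a description without a p. Of the other class II genes, 4 of 5 were tested, and H2-Ea-ps was the only one called. H2-Eb2 was at or near 0 in all libraries, and H2-Oa and H2-Ob, the chains of the H2-DM inhibitor H2-O, had at most 2.32 CPM. BALB/c mice carry class II alleles that differ from those of the C57BL/6-based reference genome, a property that all groups share and whose effect on these counts was not tested.

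Of 7 genes for factors that bind class II promoters (Rfx5, Rfxank, Rfxap, Nfya, Nfyb, Nfyc and Creb1), 0 were called by edgeR in either direction in any comparison, and 0 by DESeq2. With 1 library left out, 0 to 1 were called higher in OCsEoS, the 1 without OCsCtr 2, OCsCtr 3, OCsEoS 1 or OCsEoS 2. At an unadjusted p under 0.05, 3 were higher in OCsEo, 1 in OCsEoS and 0 between the stimuli, and 0 were lower. Nfyb, a subunit of the Y box factor NF-Y, passed the adjusted p below the cut-off, with a log2 fold change of 0.38 in OCsEo at an adjusted p of 0.0201, and of 0.48 in OCsEoS at an adjusted p of 0.0036. The median of the list was 0.17 in OCsEo and 0.06 in OCsEoS, beside -0.01 for all tested genes in both. Of 19 genes that induce or repress Ciita, 18 were tested, and 1 was called higher and 1 lower in each comparison with OCsCtr. Socs1, an inhibitor of interferon signalling, rose by 0.69 on the log2 scale in OCsEo (adjusted p = 0.0429), and by 0.71 in OCsEoS (adjusted p = 0.0305). These calls were lost in 8 and 4 of 15 alternatives, with adjusted p-values up to 0.102 and 0.132, and the first of them without any 1 of OCsCtr 1 to 3 and OCsEo 1 to 4. Prdm1, which encodes the repressor Blimp-1, fell by 0.51 in OCsEo and 0.55 in OCsEoS, and lay under the cut-off without OCsCtr 2, OCsEo 1 or OCsEo 3 in the first case and without OCsEoS 3 in the other. Ifng, the main inducer of Ciita in macrophages, was not tested, with at most 0.0593 CPM in any library.

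Of 7 genes of class II processing and turnover, 2 proteases, Ctss and Ctsl, were called higher and 0 genes lower in OCsEo and likewise in OCsEoS, with list medians of 0.05 and 0.09 on the log2 scale. Ctss, the cathepsin that trims the invariant chain in antigen-presenting cells, had 603 to 797 CPM in OCsCtr, 1066 to 1373 in OCsEo and 887 to 1058 in OCsEoS. It rose by 0.78 in OCsEo (adjusted p = 6.7e-06, edgeR) and 0.54 in OCsEoS (adjusted p = 0.000222, edgeR), where it was 0.48 to 0.50 and under the cut-off without OCsCtr 1, OCsCtr 2 or OCsEoS 1. Ctsl, cathepsin L, rose by 1.03 with eosinophils (adjusted p = 3.72e-07) and by 0.77 with the supernatant (adjusted p = 9.95e-06). Neither was called between the stimuli. Both proteases also act in lysosomes on other proteins. Ifi30, a thiol reductase of the same list, passed the adjusted p in OCsEoS below the cut-off (-0.31, adjusted p = 0.000937). Lgmn, also of this list, passed it in OCsEo below the cut-off (0.42, adjusted p = 0.00667) and did not pass it in OCsEoS (0.17, adjusted p = 0.259).

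Further T cell ligands and the class I pathway were compared in the same way. Of 14 other costimulatory and inhibitory genes, 11 were tested and 0 were called by edgeR or DESeq2 in any comparison, with 3, 2 and 1 at an unadjusted p under 0.05 in OCsEo, in OCsEoS and between the stimuli. Vsir, an inhibitory ligand, passed the adjusted p in OCsEoS below the cut-off (-0.44, adjusted p = 0.000322). Of 21 MHC class I presentation genes, 2 were called higher and 0 lower in OCsEo, the class I heavy chains H2-M3 (0.63, adjusted p = 0.0114) and H2-Q4 (0.55, adjusted p = 0.0228). H2-Q4 lost its call without OCsCtr 1, OCsCtr 2, OCsCtr 3 or OCsEo 4 (adjusted p up to 0.0864). In OCsEoS 1 was called higher and 0 lower, H2-M3 (0.65, adjusted p = 0.00758). At an unadjusted p under 0.05 there were 13 of the 21 genes in OCsEo, 12 in OCsEoS and 1 between the stimuli, and the adjusted p alone was passed by 7 higher and 1 lower in OCsEo and by 5 and 2 in OCsEoS. The list medians were 0.26 and 0.19. B2m, the class I light chain, gave 0.22 in OCsEo (adjusted p = 0.163), whereas its log2 fold change was 0.01 in OCsEoS (adjusted p = 0.972).

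Other cells that carry class II were followed by their markers. Of 8 B cell markers, all were tested and 0 were called by edgeR in any comparison, with 2, 0 and 1 at an unadjusted p under 0.05 in OCsEo, in OCsEoS and between the stimuli, where DESeq2 called 1 higher. They had a summed level of 7.83 to 23.2 CPM in OCsCtr, 21.2 to 22.0 in OCsEo and 16.3 to 22.7 in OCsEoS. Their median log2 fold change was 0.55 in OCsEo, with 7 of 8 above 0, and 0.42 in OCsEoS, with 6 of 8 above 0, beside -0.01 for all tested genes in both. With 1 library left out, 0 to 1 were called in each direction in each comparison with OCsCtr. Of 10 dendritic cell markers, 0 were called in OCsEoS (0 at an unadjusted p under 0.05, and 0 by DESeq2). In OCsEo 1 was called lower, Zbtb46 (-1.77, adjusted p = 0.0128, edgeR), while 6 of 10 were above 0, with a median of 0.35. In OCsEoS 3 of the 10 markers were above 0, with a median log2 fold change of -0.12. Their summed level was 25.4 to 39.1 CPM in OCsCtr, 27.8 to 35.5 in OCsEo and 26.9 to 38.5 in OCsEoS, and Xcr1 and Clec9a had at most 1.20 CPM. The part of these cells in the class II levels was not tested.

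Markers of eosinophils, neutrophils, T cells and macrophages were counted in the same way. Of 8 eosinophil markers, 4 were tested. Siglecf was called higher in OCsEo (2.76, adjusted p = 0.000562) and Prg2 lower in OCsEoS (-2.74, adjusted p = 0.00136) and lower in OCsEoS than in OCsEo (-2.73, adjusted p = 0.0261). The latter call was lost in 6 of 14 alternatives, DESeq2 (adjusted p = 0.0893), edgeR on 2 groups, and fits without OCsEo 2, OCsEo 3, OCsEoS 1 or OCsEoS 3. In OCsEo, Prg2 had a log2 fold change of -0.01 and Ccr3, the eotaxin receptor, of -0.29 (adjusted p = 0.0164). Epx was listed at 0 in every OCsEoS library and had at most 0.479 CPM in OCsEo. The eosinophil sums were 56.2 to 73.3 CPM in OCsCtr, 53.8 to 64.9 in OCsEo and 48.7 to 54.4 in OCsEoS. The sum was no lower in OCsCtr, to which no eosinophils were added, than in OCsEo (medians 68.1 and 58.0 CPM). It is therefore no measure of the eosinophil RNA in OCsEo, where Siglecf rose. Of 6 neutrophil markers, Camp and Elane were called higher in OCsEo, 0 in OCsEoS, and Ltf, Ngp and Mpo lower in OCsEoS than in OCsEo, with sums of 87.8 to 134 CPM, 154 to 178 and 90.9 to 113. The 3 calls between the stimuli were 0 to 3 with 1 library left out, and Ltf, Mpo and Ngp lost theirs in 6, 7 and 2 alternatives. Mpo is also among the genes that the paper lists as related to eosinophils. Camp lay under the cut-off without OCsCtr 3, OCsEo 2 or OCsEo 3. T cell markers summed to at most 3.67 CPM, with 0 of 3 tested called by edgeR or DESeq2 and 0 at an unadjusted p under 0.05. Among macrophage markers, Adgre1 was called higher (0.56) and Csf1r lower (-0.57) in OCsEoS, and 0 in OCsEo, with sums of 2173 to 2474 CPM, 1909 to 2254 and 1669 to 2064. In OCsEo both passed the adjusted p below the cut-off, Adgre1 at 0.46 (adjusted p = 0.00211, edgeR) and Csf1r at -0.44 (adjusted p = 0.000449, edgeR). Neither was called between the stimuli. The part of these cells in the changes of H2-Aa, H2-Ab1, H2-Eb1 and Cd80 was not tested.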

How the data were processed

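Bulk RNA-seq. was performed on 12 libraries from 3 groups of 4. Per the labels and methods, total RNA was converted to libraries with the NEBNext Ultra kit, reads were cleaned (fastp) and aligned with HISAT2 2.0.5 to GRCm38/mm10 (processing notes of the submitters), and reads per gene were counted with featureCounts. The annotation release and the strand setting are not given in the sources used here. The authors deposited raw counts per gene, without normalization, in a table of 47643 genes (27440 without any count). Gene coordinates and lengths are those of the deposited table. All rows name a gene. The 18 pairs of libraries within groups differed by more than sampling noise (chi-square per degree of freedom 10.23 to 36.52).

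The software was edgeR 4.0.16 and, as an alternative, DESeq2 1.42.0 (R 4.3.3). Genes were filtered with filterByExpr (minimum count 10; 13681 genes left), TMM factors of 0.968 to 1.03 scaled the libraries, and the 3 groups shared 1 fit, from which the quasi-likelihood F-test of edgeR compared pairs of groups, with Benjamini-Hochberg adjustment over all genes tested. Calls needed an adjusted p under 0.05 and a log2 fold change past 0.5. Log2 CPM used a prior count of 2. Intervals are 95% intervals of the fitted changes and floors (3 counts) cover counting error only. The script was tested on simulated data. Genes named were all 9 genes in every library, the called genes of each list (at most 6 per comparison), markers at or near 0, and the 10 and 5 genes most alike the class II genes. Nfyb, Vsir, B2m, Ifi30, Lgmn, Ccr3, H2-DMb2, H2-Oa and H2-Ob, and the sum of both H2-DMb copies, were chosen after their values were seen. The 9 genes and the lists were chosen with earlier results of these data known. Alternatives were DESeq2, its size factors within edgeR, scaling by the upper quartile, fits of 2 groups only, no filter, at least 10 counts in every library, a replicate block, cut-offs of 0 and 1, and each library left out.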

Additional observations from a re-analysis of the deposited data

Results flagged for a closer look

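In 78 groups of 4 libraries (26 genes in 3 groups each), 5 had 1 library whose gap to the nearest other was, as a share of the group's range, above the critical value of Dixon's test, and chance flags about 1 in 20 groups. Among the 9 genes this was Cd86, with 4.14 CPM in OCsEoS 2 beside 2.92 to 3.03 CPM in the other OCsEoS libraries. Ctss had 1373 CPM in OCsEo 4 beside 1066 to 1093 CPM. H2-Q4 had 12.6 CPM in OCsEoS 2 beside 13.6 to 13.8 CPM. Mpo had 41.6 CPM in OCsEo 3 beside 25.7 to 27.7 CPM, and Adgre1 had 418 CPM in OCsEo 4 beside 313 to 324 CPM.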

How the results depend on the processing

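Of the 9 genes, 1 was called higher in OCsEo, 3 in OCsEoS and 1 in OCsEoS against OCsEo, and 0 were called lower. With a cut-off of 1 on the log2 scale these counts were 0, 0 and 0, and without a filter on low counts the count in OCsEo was 0. With 1 library left out, the counts higher ranged from 0 to 1 in OCsEo, 0 to 4 in OCsEoS and 0 to 1 between the stimuli, and the count lower in OCsEo from 0 to 1. The OCsEoS count was 0 without OCsCtr 3 and 0 without OCsEoS 2, because the 3 log2 fold changes lie close to the cut-off, while their adjusted p-values were at most 0.0143 with any library left out. The log2 fold change of H2-Eb1 in OCsEo was -0.01 and turned to 0.15 without OCsCtr 2 (adjusted p = 0.430, range -0.11 to 0.15 with 1 library left out), and the cause was not tested. Ciita, called in no setting, also turned, from -0.37 to 0.38 in OCsEo, from -0.41 to 0.10 in OCsEoS and from -0.51 to 0.24 between the stimuli with 1 library left out, and H2-Aa, H2-Ab1 and H2-DMb1 in OCsEo, Cd80 in OCsEoS and H2-DMa between the stimuli changed sign close to 0. H2-Aa was called between the stimuli without OCsEo 2 (0.54; adjusted p = 0.048).

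With a replicate block the counts of the 9 genes were 1, 4 and 1 higher, H2-DMb1 (0.67; adjusted p = 0.0357) being the added gene. Over all genes the block gave 465 higher and 389 lower in OCsEo, 509 and 599 in OCsEoS, and 17 and 50 between the stimuli, beside 447 and 357, 496 and 562, and 10 and 42 without it. Whether the replicate numbers pair the libraries is not known, and the main fit had no replicate block. Correlations of deviations were -0.04 to 0.09 (median 0.04) in the 12 same-numbered pairs, with 0 over 0.1. In the 36 other pairs they were -0.11 to 0.12 (median -0.01), with 1 over 0.1. Of 24 combinations of a library and another group, 17 correlated best with their own number among the 4 libraries of that group. A pick at random would match 1 in 4, and the 24 combinations share libraries. Over all genes, no cut-off gave 1239 higher and 1143 lower in OCsEo, 1620 and 1531 in OCsEoS, and 68 lower between the stimuli, and a cut-off of 1 gave 99 and 37, 80 and 80, and 3 and 18. Between the stimuli, DESeq2 called 23 genes higher, no filter gave 32 and 68, and leaving out 1 library gave 1 to 12 higher and 16 to 50 lower. Ciita had the lowest counts of the 9 genes, 13 to 69 per library, and the widest intervals, and the part of depth in this was not tested.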
